A study of Homo sapiens with 33 samples.

Results

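A set of 10 genes of the cytosolic and mitochondrial chaperone system was followed through treatment of a lymphoma cell line with the PRC2 inhibitor EED226: HSP90AA1, HSP90AB1, HSPA1A, HSPA8, HSPD1, HSPE1, HSPH1, DNAJB1, FKBP4 and FKBP5. They were chosen by name with earlier results of these data known, so their counts beside those of all genes describe this set only. Every probe set that the platform annotation gives to one of them was taken, 32 of the 54675 probe sets in the table. Of the 10 genes, 8 had probe sets of their own. The other 2 could be read only from shared probe sets: those of HSPA1A are also annotated to its near-identical neighbour HSPA1B, and 1 of them to HSPA1L as well, and those of HSPA8 are also annotated to the small nucleolar RNAs SNORD14C and SNORD14D, so each is reported as a shared signal.

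Molecular chaperones bind unfolded or unstable proteins and release them in cycles of ATP binding and hydrolysis. In the cytosol DNAJB1, an HSP40 protein, delivers a client to HSP70 (the constitutive HSPA8 or the stress-inducible HSPA1A), HSPH1 exchanges the nucleotide of HSP70, and clients such as kinases and steroid receptors pass on to HSP90, of which HSP90AA1 and HSP90AB1 are the cytosolic isoforms. FKBP4 (FKBP52) and FKBP5 (FKBP51) are immunophilin co-chaperones that compete for HSP90 in the glucocorticoid receptor complex, and FKBP5 is itself a well-known glucocorticoid-induced gene. HSPD1 (HSP60) and its lid HSPE1 (HSP10) form the folding chamber of the mitochondrial matrix. Heat shock factor 1 drives many of these genes under stress.

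Karpas422 is an established human diffuse large B cell lymphoma line that carries an EZH2 mutation, per the series title, and all 33 arrays are of this 1 line. EED226 binds EED, the subunit through which PRC2 reads the histone mark that it writes. Cells at 0 h, and cells given DMSO (the solvent) or EED226 for 8 h, 1 day, 2 days, 3 days or 6 days, gave 11 groups of 3 arrays, named biological triplicates by the design text. Times of 1 day or more are stated in hours in the titles and in days in the design text, which also gives the dose as 5 µM. That text speaks of an EZH2 inhibitor, the protocol also names the compound EI1, and the titles, which set the groups here, name EED226. How the 0 h cells were treated is not stated, and the treatment text does not list the 8 h time. No label says whether triplicates came from separate cultures, so p-values measure the spread between these arrays.

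Values are log2 RMA values per probe set. Array medians lay between 4.06 and 4.18, and the lowest correlation between arrays of a group was 0.986 at DMSO day 6 and 0.994 or more elsewhere. The 75th percentile was lowest, at 6.10, on DMSO day 6 replicate 3. All 6 measured B cell markers lay above the array median on all 33 arrays, while CD2, CD8A, NKG7, CD14, S100A8, S100A9 and EPCAM did so on 0 arrays. Of the genes of other cell types, CD3D (7.69 to 9.43), COL1A1 (5.51 to 7.29) and KRT18 (4.46 to 5.28) were also above it on all 33 arrays and CD3E on 32.

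Promoter sequence was matched for 9 of the 10 genes in RefSeq windows of GRCh38.p14 that run from 250 bases before to 50 after the start. FKBP4 had no match. Each gene was read from 1 window, so any other start of a gene was not searched. A heat shock element is an array of alternating GAA and TTC blocks. It was searched for on both strands as a dimer, GAANNTTC or TTCNNGAA, and as a trimer, which is either dimer followed after 2 more bases by its own first block, so that each trimer holds overlapping dimers. A dimer was found in 2 of the 9 windows (22.2%) and in 13.7% of all 27305 windows. A trimer was found in 1 of the 9, that of HSPA8, and in 0.487% of all windows. The 250 bases before the starts of HSPA8 (chr11:123062137-123062386, minus strand) and HSPA1A (chr6:31815293-31815542, plus strand) are shown because they are the windows with a match, with the matched letters in capitals. The third sequence is the 104 bases between the starts of HSPD1 and HSPE1 (chr2:197500275-197500378, plus strand), 74.0% G or C. It is shown because these partner genes run head to head from it and both fell with EED226.
HSPA8: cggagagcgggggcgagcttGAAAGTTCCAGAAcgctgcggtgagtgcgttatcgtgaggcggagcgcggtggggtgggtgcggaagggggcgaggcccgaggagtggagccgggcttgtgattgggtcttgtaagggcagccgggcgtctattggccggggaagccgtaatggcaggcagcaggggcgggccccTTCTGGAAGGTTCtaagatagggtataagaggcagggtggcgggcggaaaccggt
HSPA1A: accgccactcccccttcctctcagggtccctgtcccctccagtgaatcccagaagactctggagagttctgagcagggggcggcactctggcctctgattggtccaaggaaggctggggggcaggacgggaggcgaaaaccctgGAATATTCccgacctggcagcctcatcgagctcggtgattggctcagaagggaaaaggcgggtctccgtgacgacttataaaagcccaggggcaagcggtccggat
HSPD1 and HSPE1: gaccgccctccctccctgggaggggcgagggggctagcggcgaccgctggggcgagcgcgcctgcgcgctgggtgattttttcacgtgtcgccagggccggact
In HSPA8 the trimers begin at -230 and -55 from the start, and in HSPA1A the dimer begins at -106. The windows of HSPD1 and HSPE1 overlap by 204 bases. A match describes the letters only, and its absence from a window says nothing about the factor.

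None of the chaperone genes passed the test between EED226 and DMSO at 8 h or day 1, and those that passed from day 2 on were all lower with EED226, most of them by day 6. With limma over all 19775 genes and a Benjamini-Hochberg adjusted p under 0.05, 0 of the 8 genes passed at 8 h and 0 at day 1, and none had an unadjusted p under 0.05 at either time. At day 2 FKBP4 alone was lower. At day 3, FKBP4, HSPE1, HSP90AB1 and HSPD1 were lower (4 genes), and at day 6 all but DNAJB1 were lower (7 genes). None was higher at any time. The share of all genes called lower was 0% at 8 h, 0.0354% at day 1, 2.68% at day 2, 11.2% at day 3 and 27.3% at day 6, and the share called higher 0%, 0.834%, 6.76%, 11.7% and 23.7%. The median log2 difference of the 8 genes was 0.02, -0.01, -0.13, -0.21 and -0.58 at the 5 times, beside -0.00, -0.01, -0.03, -0.02 and -0.11 over all genes. The all-gene shares and medians take in genes of every level and were not matched to the 8 genes by level. The EED226 arrays lay wholly below the DMSO arrays for 0 of the 8 genes at 8 h and at day 1, 4 at day 2, 4 at day 3 and 7 at day 6, against 3.21%, 6.00%, 15.7%, 19.1% and 28.0% of all genes.

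**Figure D1:**
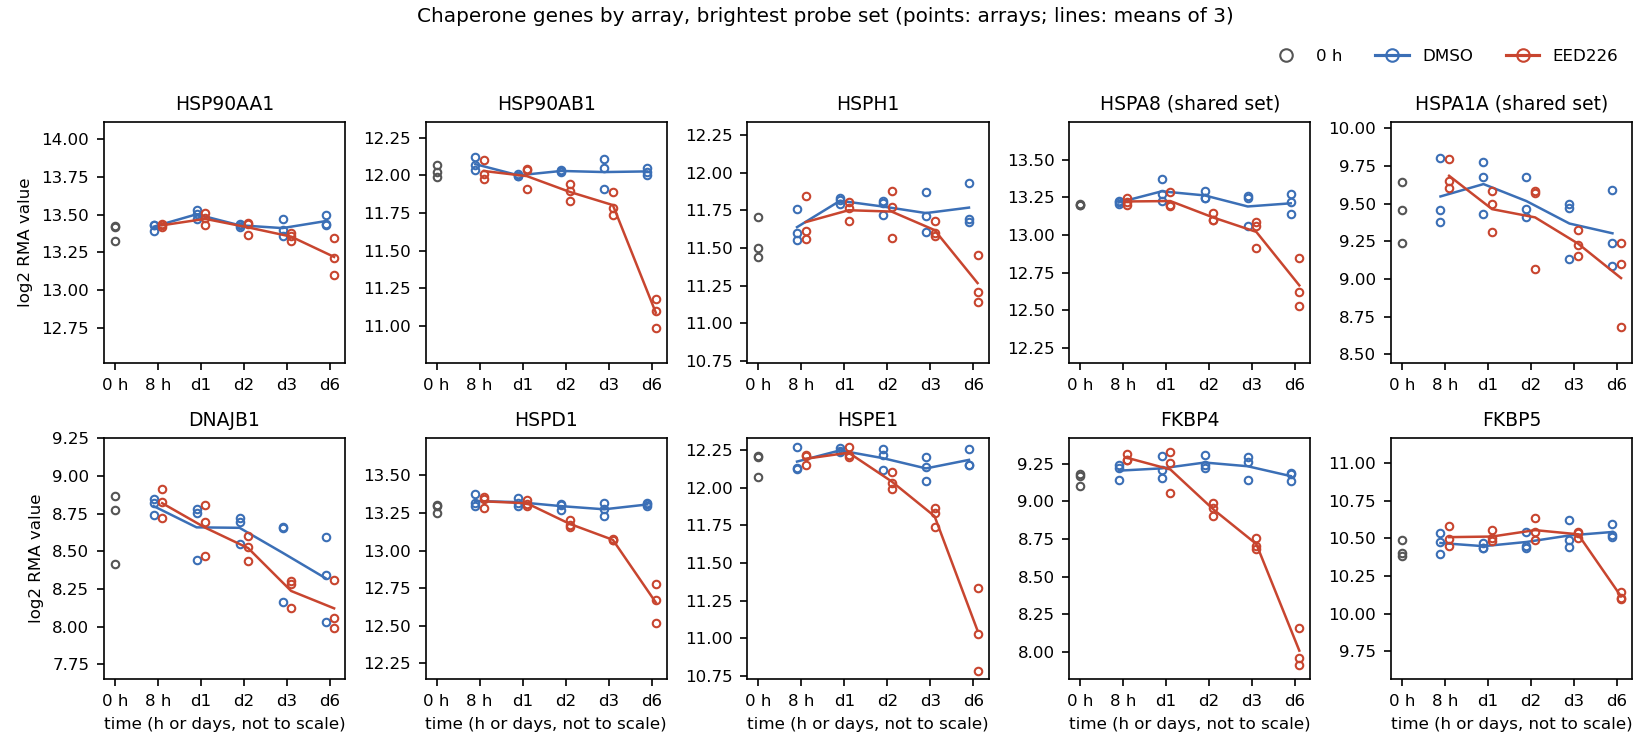
Log2 RMA value (vertical axis) of the brightest probe set of each of the 10 genes on every array, by time on an axis not to scale (d1 to d6 are days). Open points are single arrays and lines join the means of 3, with 0 h in grey, DMSO in blue and EED226 in red; every panel spans the same log2 range, and FKBP4 and HSPE1 show the deepest falls at day 6, by 1.16 and 1.13.

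FKBP4 was the gene that passed the test earliest, at day 2. Its values in DMSO were 9.24, 9.22 and 9.31 at day 2, 9.30, 9.26 and 9.14 at day 3, and 9.18, 9.18 and 9.14 at day 6. In EED226 they were 8.90, 8.99 and 8.95 at day 2, 8.68, 8.71 and 8.76 at day 3, and 7.91, 7.96 and 8.16 at day 6. The groups did not overlap at any of these times, and the 3 late EED226 groups followed in order with no overlap below the other 24 arrays, which lay between 9.05 and 9.33. At 8 h its EED226 arrays, at 9.27, 9.31 and 9.28, lay above those of DMSO, at 9.14, 9.24 and 9.22, and the difference of 0.08 ± 0.07 did not pass. From day 2 on the log2 difference was -0.31 ± 0.07 (SE, n = 3; limma adjusted p = 0.003162) at day 2, -0.52 ± 0.07 (adjusted p = 1.931e-06) at day 3 and -1.16 ± 0.07 (adjusted p = 6.552e-14) at day 6, the last a level 2.23-fold lower. The FKBP4 call at day 2 remained under all 18 alternatives tried, with adjusted p up to 0.02499.

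FKBP5, its competitor on HSP90, did not pass the test to day 3 and fell at day 6. On the 30 arrays other than EED226 at day 6 its values ran from 10.39 to 10.63. At day 6 they were 10.51, 10.52 and 10.60 in DMSO and 10.10, 10.14 and 10.10 in EED226. These 3 EED226 arrays were the lowest of all 33, while the arms overlapped at 8 h and days 2 and 3. At day 1 the EED226 arrays, from 10.48 to 10.55, lay just above those of DMSO, from 10.43 to 10.47. The log2 difference was 0.08 ± 0.06 at day 2, 0.01 ± 0.06 at day 3 and -0.43 ± 0.06 at day 6 (limma adjusted p = 0.525, 0.9628 and 5.979e-07).

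The 2 cytosolic HSP90 genes gave log2 differences of -0.94 and -0.24 at day 6. HSP90AB1, the isoform that cells make constitutively, had DMSO values of 12.05, 12.03 and 12.00 and EED226 values of 11.10, 10.99 and 11.18 at that time. At day 3 it had 12.11, 12.05 and 11.91 in DMSO and 11.78, 11.89 and 11.74 in EED226. The groups did not overlap at either time, narrowly so at day 3, and EED226 at day 6 was below every other array of the series. It fell by 0.22 ± 0.06 at day 3 (limma adjusted p = 0.009252) and by 0.94 ± 0.06 at day 6 (adjusted p = 4.729e-13). The day 3 call of HSP90AB1 was lost without DMSO day 3 replicate 1 (adjusted p = 0.07591), without EED226 day 3 replicate 3 (0.05987) and with only the 6 arrays of that time (0.1078), the highest of its 18 alternatives. The lowest was 0.0006029.

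HSP90AA1, the more stress-responsive isoform, had 13.44, 13.43 and 13.50 in DMSO and 13.21, 13.10 and 13.34 in EED226 at day 6. The arms did not overlap there, although the highest EED226 array lay above the lowest 0 h array, at 13.33. Its brightest probe set fell by 0.24 ± 0.06 (limma adjusted p = 0.0007591), a call lost with only the 6 arrays of day 6 (adjusted p = 0.1057, beside 2.11e-06 in the most favourable of 17 alternatives). At day 3 the difference was -0.06 ± 0.06 and did not pass (adjusted p = 0.5752).

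The probe sets of HSP90AA1 disagreed on the size. The fourth in brightness, 211968_s_at, had 12.31, 11.94 and 12.06 in DMSO and 11.49, 10.95 and 10.97 in EED226 at day 6. That is a difference of -0.97 ± 0.18 (limma over all probe sets, adjusted p = 8.16e-05), beside -0.24, -0.23 and -0.32 on the 3 brighter sets. Their mean levels over all arrays were 13.41, 13.19 and 13.17.

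In the HSP70 cycle the shared HSPA8 signal fell at day 6. Its brightest probe set had 13.22, 13.14 and 13.27 in DMSO and 12.53, 12.62 and 12.85 in EED226. The arms did not overlap at day 6, and the EED226 arrays were the lowest of the series for this set. All 4 HSPA8 probe sets passed, with log2 differences from -0.80 to -0.33, and the brightest gave -0.55 ± 0.08 (limma over all probe sets, adjusted p = 7.325e-07). At day 3 the brightest set differed by -0.17 ± 0.08 and did not pass (adjusted p = 0.1561).

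HSPH1, the HSP110 exchange factor that works with HSPA8, had 11.69, 11.67 and 11.93 in DMSO and 11.21, 11.14 and 11.45 in EED226 at day 6. The arms did not overlap at day 6, but the 0 h arrays, from 11.44 to 11.70, reached the highest EED226 value. The difference was -0.50 ± 0.10 (limma adjusted p = 9.378e-05), and its set 208744_x_at gave -1.19 ± 0.25. At day 3 HSPH1 differed by -0.11 ± 0.10 and did not pass (adjusted p = 0.5121).

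The stress-inducible HSP70 signal shared by HSPA1A and HSPA1B was the less clear of the HSP70 signals. Its brightest set had 9.24, 9.08 and 9.59 in DMSO and 9.10, 8.68 and 9.24 in EED226 at day 6. The arms overlapped, and in both of them replicate 3 was the highest and replicate 2 the lowest. The difference of -0.30 ± 0.16 did not pass (limma over all probe sets, adjusted p = 0.1396). The second set, 200800_s_at, also annotated to HSPA1L, gave -0.56 ± 0.18 and passed (adjusted p = 0.01443). The third lay at a mean level of 2.38, below every array median, and differed by 0.20 ± 0.12 (adjusted p = 0.1929).

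DNAJB1, the J protein that hands clients to HSP70, showed the same order of replicates. At day 6 its brightest set had 8.34, 8.03 and 8.59 in DMSO and 8.06, 7.99 and 8.31 in EED226. The arms overlapped, with replicate 3 highest and replicate 2 lowest in each, and the difference of -0.20 ± 0.14 did not pass (limma adjusted p = 0.239). The other set, 200664_s_at, had 7.73, 7.72 and 7.71 in DMSO and 7.20, 7.16 and 7.39 in EED226, with no overlap and a difference of -0.47 ± 0.14 (adjusted p = 0.007511). Leaving out DMSO day 6 replicate 2, the lowest DMSO array, gave -0.35 for the brightest set (limma adjusted p = 0.04929), and leaving out DMSO day 6 replicate 3, the highest, gave -0.06 (0.7581). The adjusted p over its 17 alternatives ran from 0.03082 to 0.7581. At day 3 DMSO replicate 3, at 8.16, stood below the other DMSO arrays at 8.66 and 8.65, and without it the difference was -0.42 (adjusted p = 0.03448) in place of -0.25 ± 0.14 (adjusted p = 0.2351). Without DMSO replicate 1 or 2 of day 3 it was -0.17.

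The mitochondrial chaperonin pair fell at days 3 and 6. HSPD1 had 13.28, 13.31 and 13.23 in DMSO at day 3 and 13.07 on each of the 3 EED226 arrays. At day 6 it had 13.31, 13.30 and 13.31 in DMSO and 12.67, 12.52 and 12.78 in EED226. The DMSO arrays lay close together at day 6, and EED226 values were below all of them at both times. HSPD1 fell by 0.20 ± 0.05 at day 3 (limma adjusted p = 0.006558, and 0.06799 with only the 6 arrays of that time, the single alternative of 18 that lost the call, with a lowest of 6.807e-05) and by 0.65 ± 0.05 at day 6 (adjusted p = 6.214e-11). Its second set, 200806_s_at, gave -1.41 ± 0.12 at day 6.

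HSPE1, the lid of the chamber, has 1 probe set. It had 12.20, 12.14 and 12.04 in DMSO and 11.83, 11.86 and 11.74 in EED226 at day 3, and 12.15, 12.15 and 12.26 against 10.79, 11.03 and 11.34 at day 6. The arms did not overlap at either time, and no group but EED226 at day 6 reached down to EED226 at day 3. The difference was -0.32 ± 0.09 at day 3 (limma adjusted p = 0.007196) and -1.13 ± 0.09 at day 6 (adjusted p = 9.391e-12), the latter 2.19-fold lower. In EED226 at day 6 the 3 HSPE1 arrays spread more widely than in DMSO.

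At the level of probe sets, 29 of 32 were lower at day 6, 8 at day 3, 1 at day 2 and 0 at day 1 and 8 h, and 0 were higher. By limma over all probe sets, 20.6% were called lower at day 6, 7.13% at day 3, 0.989% at day 2, 0.00549% at day 1 and 0% at 8 h. At 8 h and day 1, 0 of the 32 had an unadjusted p under 0.05. The 3 that did not pass at day 6 were the brightest DNAJB1 set and the HSPA1A sets 202581_at and 200799_at. In 9 of 9 genes with several sets, a set other than the brightest had the largest fall, from -0.47 for DNAJB1 to -1.54 for FKBP4 (200894_s_at). The sizes given above for the brightest sets are therefore not the largest measured for these genes. No such count was made over all genes with several sets, so it shows nothing particular to these. Sets of 1 gene share its RNA and count as 1 gene.

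**Figure D2:**
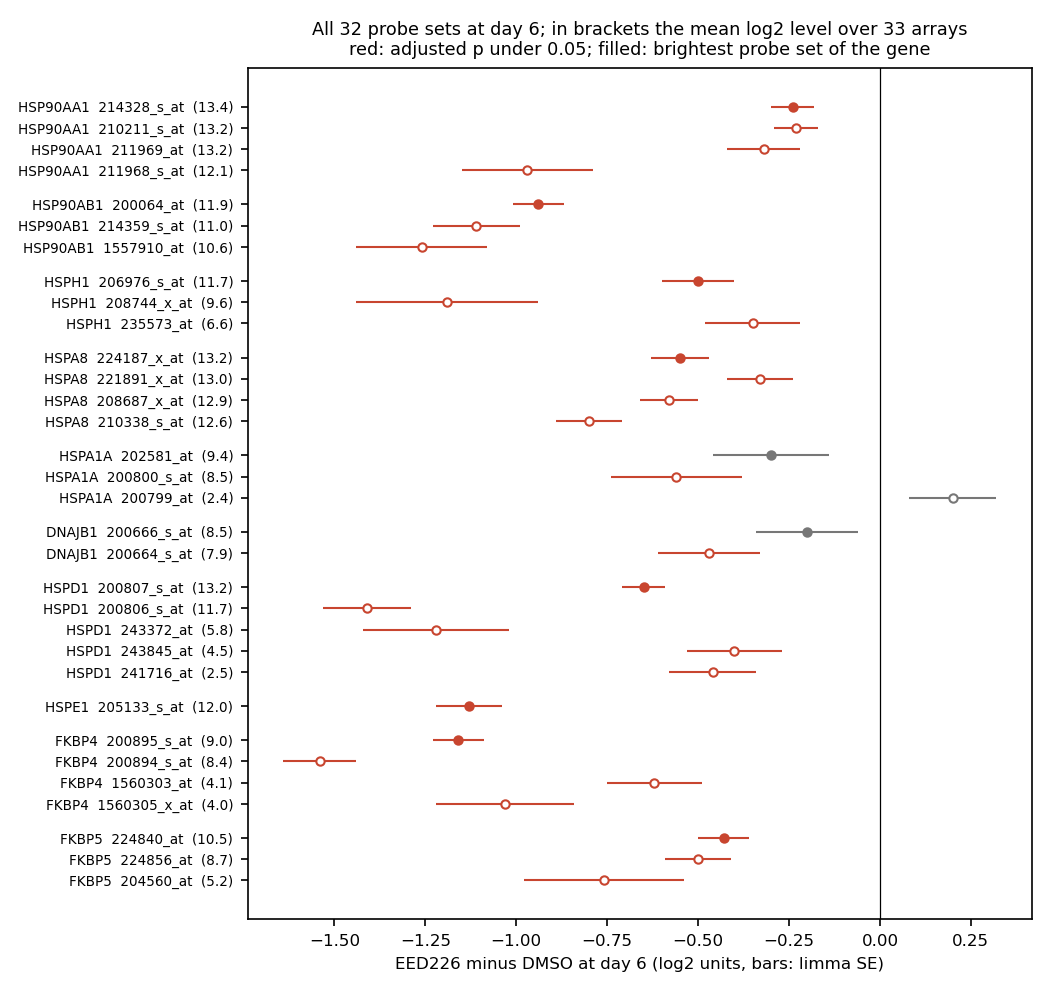
Log2 difference, EED226 minus DMSO at day 6 (horizontal axis), of all 32 probe sets with limma SE bars; the mean log2 level over 33 arrays stands in brackets. Red points passed and grey ones did not, filled points are the brightest set of a gene, and 29 of the 32 sets are red and left of 0.

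Signs of RNA state moved with the comparison, most of all at day 6. The log2 difference between the ACTB controls at the 3' and at the 5' end of the transcript was 2.87, 3.26 and 3.29 in DMSO and 3.50, 4.07 and 4.14 in EED226 at that time, and that of GAPDH was 0.24, 0.29 and 0.26 against 0.52, 0.74 and 0.66. At day 3 the arms did not overlap either, with ACTB at 3.05, 3.08 and 3.16 in DMSO and 3.26, 3.34 and 3.74 in EED226. GAPDH was then 0.24, 0.23 and 0.24 against 0.30, 0.32 and 0.44. At day 2 GAPDH was 0.26, 0.24 and 0.25 against 0.28, 0.37 and 0.35, while ACTB overlapped. The ACTB value did not overlap between the arms at days 3 and 6. A covariate so tied to the arms cannot tell RNA state and EED226 apart at those times. With the ACTB value as a covariate the number of lower genes was unchanged, at 1 at day 2 and 4 at day 3. At day 6 the same number of genes, 7 of 8, was lower with it. FKBP4 then differed by -1.25 ± 0.09, HSPE1 by -1.33 ± 0.11 and HSP90AB1 by -0.87 ± 0.08, all 3 calls remaining by limma. The count of lower probe sets was 22 of 32 at day 6 and 5 at day 3 with that covariate. The shared HSPA1A signal was called lower with it, at -0.62 ± 0.20 (adjusted p = 0.01912 at the low end of its 14 alternatives, which reached 0.5638).

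Cell type markers moved as well. The mean of the 6 B cell markers was 10.14 to 10.47 in DMSO and 10.79 to 10.98 in EED226 at day 6. That of the 5 myeloid markers was 3.23 to 3.35 and 3.45 to 3.63, with LYZ 2.28 higher. The other 4 myeloid markers had lower means with EED226, S100A8 by a called -0.47 (limma adjusted p = 0.002854) and CD14, S100A9 and CSF1R by -0.27, -0.24 and -0.15, which did not pass. The 6 T and NK cell markers averaged 4.32 to 4.55 and 4.11 to 4.33, with CD3D 0.95 lower, and the 4 fibroblast and epithelial markers 4.21 to 4.78 and 3.95 to 4.09, with a COL1A1 difference of -0.80. Their part in the chaperone result was not tested. All arrays are of the same cell line, and in its bulk RNA a change in all cells and a change in some of them cannot be told apart.

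For most of the genes the effect grew between days 3 and 6. The EED226 effect at day 6 was lower than that at day 3 for 6 of the 8 genes, and for the shared HSPA8 signal, when the difference of the effects was itself tested with limma. The effect fell by 0.82 ± 0.12 for HSPE1 (adjusted p = 1.239e-05), by 0.72 ± 0.09 for HSP90AB1 (5.864e-07) and by 0.64 ± 0.10 for FKBP4 (1.52e-05). Over all genes 10.7% passed in that direction and 24.9% in either. HSP90AA1 (-0.18 ± 0.08), DNAJB1 (0.05 ± 0.20) and the shared HSPA1A signal (-0.16 ± 0.22) did not pass. Of the 8 genes, 0 passed for day 2 minus day 1 and 0 for day 3 minus day 2, with 1 at an unadjusted p under 0.05 in each. Of all genes 0.576% and 0.511% passed in these 2 comparisons.

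In DMSO alone none of the 8 genes passed limma against 0 h at any of the 5 times, where the share of all genes called in either direction was 0%, 0.177%, 0.890%, 3.02% and 1.72%. At an unadjusted p under 0.05 there were 0, 1, 1, 0 and 2, which were HSPH1, higher than at 0 h by 0.27 at day 1, 0.23 at day 2 and 0.22 at day 6, and DNAJB1, lower by 0.36 at day 6. These comparisons share the 0 h arrays, and the DMSO arrays are also the controls of EED226.

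Partner genes were set against each other within each array, as the difference of their log2 values, which has no meaning as a ratio of transcripts but can be compared between arms. FKBP4 minus FKBP5 lay between -2.19 and -1.94 in EED226 and between -1.46 and -1.32 in DMSO at day 6, a change of -0.73 ± 0.09 (SE). It was already -0.39 ± 0.06 at day 2 and -0.52 ± 0.10 at day 3, without overlap. HSP90AA1 minus HSP90AB1 rose by 0.70 ± 0.04 at day 6, from 1.39 to 1.50 in DMSO to 2.11 to 2.16 in EED226. These pairs use the brightest set of each gene, and other sets give other sizes: the HSP90AA1 set 211968_s_at fell by 0.97, beside 0.94 for the brightest HSP90AB1 set, and the FKBP5 set 204560_at fell by 0.76, beside 0.62 for the FKBP4 set that fell least. That FKBP4 set, 1560303_at, lay near the array medians, at 4.23 to 4.26 in DMSO and 3.49 to 3.76 in EED226 at day 6. The FKBP5 set had a mean level of 5.23. The brightest FKBP4 set fell by 1.16 and 200894_s_at, with a mean level of 8.39, by 1.54. The HSP90AA1 set used has a mean level of 13.41, where the highest value in the table is 14.01.

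HSPD1 minus HSPE1 rose by 0.48 ± 0.14, with 1.06 to 1.16 in DMSO and 1.44 to 1.88 in EED226. HSPA8 minus HSPA1A changed by -0.25 ± 0.19, with overlapping arms. The exact two-sided permutation test over the 20 splits of 3 against 3 cannot go below 0.1, the p that the first 3 pairs reached at day 6 (0.133 after adjustment over the 4 pairs), while HSPA8 minus HSPA1A had an exact p of 0.2. With the mean of each gene's probe sets the changes were -0.52 for FKBP4 minus FKBP5, 0.66 for HSP90AA1 minus HSP90AB1, 0.31 for HSPD1 minus HSPE1 and -0.34 for HSPA8 minus HSPA1A. The last was -0.13 without EED226 day 6 replicate 1 and -0.39 without replicate 2, and -0.17 without DMSO day 6 replicate 2.

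**Figure D3:**
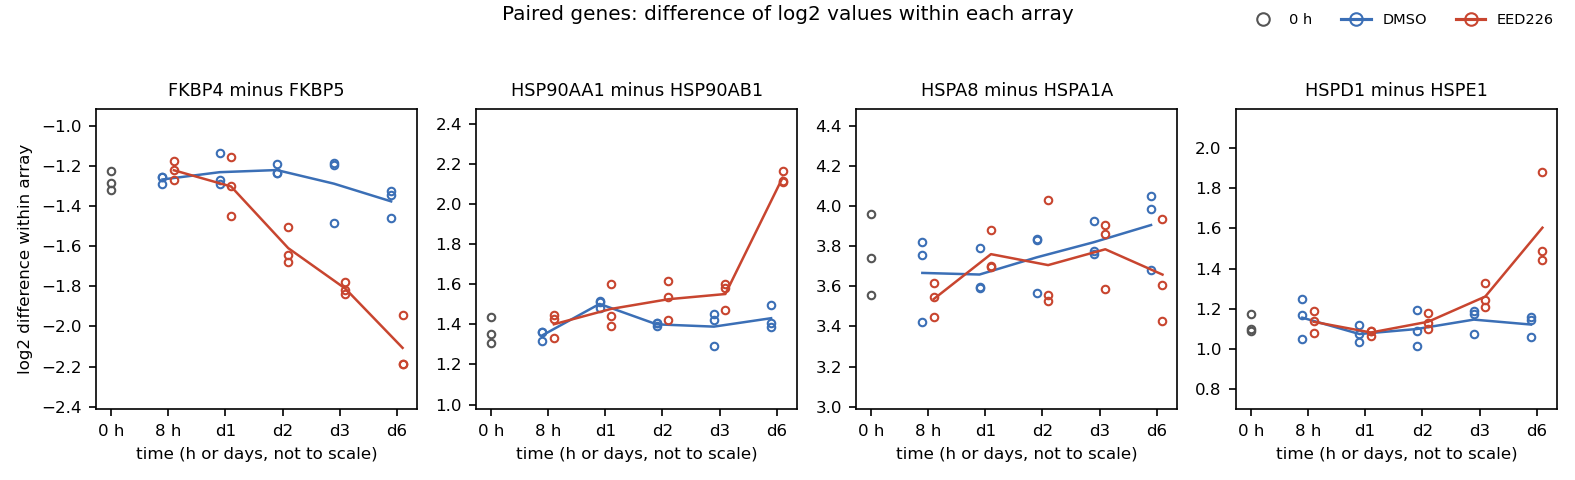
Difference of the log2 values of 2 partner genes on the same array (vertical axis) by time, not to scale (d1 to d6 are days), for 4 pairs; points are arrays, lines join means of 3, and colours mark 0 h, DMSO and EED226. FKBP4 minus FKBP5 leaves the DMSO range at day 2, HSP90AA1 minus HSP90AB1 stands at 2.11 to 2.16 in EED226 at day 6, and HSPA8 minus HSPA1A overlaps throughout.

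Within groups some of the genes varied together from array to array. Over the 33 arrays, the deviations from the group mean correlated with r = 0.80 for HSP90AA1 and HSPD1, 0.78 for HSPA8 and HSPE1, 0.76 for HSP90AA1 and HSPH1, 0.75 for HSPA1A and HSPH1 and 0.72 for HSPA1A and DNAJB1. HSP90AA1 and HSP90AB1 gave 0.34. FKBP5 had negative values with all 9 others, from -0.49 with HSPD1 and -0.41 with HSP90AB1 to -0.01 with FKBP4. All these values come from the same arrays and share their preparation and normalization, so they are a description only.

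The genes whose 11 group means were most like those of FKBP4, among 7922 with a range of at least 0.5, were TMEM70 (r = 0.997), NUP85 (0.996) and GID8 (0.996). Their differences at day 6 were -0.84, -1.44 and -0.70. FKBP5 was most like HADH (0.979), CENPF (0.970), a kinetochore protein, and STIL (0.967), a centriole protein, which fell by 0.81, 1.40 and 0.99 at day 6 and differed by 0.03, -0.04 and -0.05 at day 3. The shared HSPA1A signal was most like CPLANE2, ZNF614 and PGM2L1 (0.959 each). The profiles follow the same 11 groups, and these r values are given without a test.

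The wider chaperone network and the glucocorticoid receptor with its known targets were read from 11 gene lists. These held 125 measured genes, none of them among the 10. By limma 60 were lower and 25 higher at day 6, 36 and 14 at day 3, 10 and 6 at day 2, 0 and 2 at day 1, and 0 and 0 at 8 h, where 3 had an unadjusted p under 0.05. Over all genes 27.3% were lower and 23.7% higher at day 6, and 11.2% and 11.7% at day 3. The all-gene shares were 2.68% lower and 6.76% higher at day 2, 0.0354% and 0.834% at day 1, and 0% and 0% at 8 h. The receptor list, whose genes are not chaperones, gave 6 of the 25 higher and 1 of the 60 lower calls at that time.

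Among the HSP90 co-chaperones 11 of 18 were lower and 1 was higher at day 6, with a median log2 difference of -0.32 beside -0.11 over all genes. CACYBP, which links HSP90 and ubiquitin ligase complexes, fell by 1.69 ± 0.09, and STIP1 (HOP), the adaptor between HSP70 and HSP90, by 1.23 ± 0.10. PTGES3 (p23) fell by 0.56 ± 0.06. CDC37L1 rose by 0.57 ± 0.10, while CDC37, which recruits kinases, differed by -0.04 ± 0.11. Of the other 2 HSP90 family genes, the mitochondrial TRAP1 fell by 1.43 ± 0.08 and HSP90B1 of the endoplasmic reticulum differed by -0.27 ± 0.24 and did not pass. With the ACTB covariate HSP90B1 was called higher, at 0.67 ± 0.21 (limma adjusted p = 0.01062), and with the replicate number as a block lower, at -0.27 (0.01302), while its adjusted p reached 0.9072 without EED226 day 6 replicate 3. TRAP1 was -0.55 ± 0.09 with the mean of its probe sets.

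In the HSP70 family 3 of 10 were lower and 1 was higher, with a median of -0.09, near that of all genes. Of these 10 genes, 3 had DMSO means at day 6 below 4.06, the lowest array median, where a change may not be seen. HSPA14 fell by 1.37 ± 0.07, the mitochondrial HSPA9 by 0.86 ± 0.06 and HSPA4 by 0.67 ± 0.07. HSPA4L was 1.02 ± 0.28 higher (limma adjusted p = 0.003696), a call lost without DMSO day 6 replicate 3 (0.60, adjusted p = 0.06624), with array weights (0.57, 0.05949) and with only the 6 arrays of day 6 (0.0549), while the ACTB covariate gave 1.82 ± 0.33. With the mean of probe sets HSPA14 was -0.73 and BAG2 -0.77, both still called. The exchange factors of HSP70 were lower in 9 of 11 and higher in 1, with a median of -0.52. BAG2 fell by 1.28 ± 0.09 and GRPEL1, the exchange factor of HSPA9, by 1.11 ± 0.07, while SIL1, which serves the HSP70 of the endoplasmic reticulum, rose by 0.90 ± 0.09.

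The HSP40 family went both ways, with 14 of 28 lower and 10 higher and a median of -0.17. DNAJC9, a histone co-chaperone, fell by 1.12 ± 0.06 and the ribosome-bound DNAJC2 by 0.87 ± 0.06. DNAJB4, a close relative of DNAJB1, rose by 2.13 ± 0.23, and DNAJC6 (auxilin), which uncoats clathrin vesicles, by 1.80 ± 0.19. These rises began from low DMSO means at day 6, 5.16 for DNAJB4 and 4.03 for DNAJC6. The latter lay below the lowest array median of 4.06. The DMSO means of DNAJC9 and DNAJC2 were 10.94 and 10.83. With the mean of probe sets, DNAJC9 was -0.68, DNAJC2 -0.39 and DNAJC6 0.84, all 3 still called.

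The cytosolic chaperonin TRiC and its feeder prefoldin had 9 of 12 lower and 1 higher, with a median of -0.51. All 7 measured CCT subunits of TRiC fell, from -1.00 ± 0.06 for CCT6A and -0.87 ± 0.05 for CCT5 to -0.48 ± 0.06 for CCT3. With the mean of its probe sets CCT5 was -0.47. Of 5 prefoldin subunits 2 fell, and PFDN5 rose by 0.39 ± 0.05. That division of the list into CCT and prefoldin subunits was made after the values were seen.

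The mitochondrial proteases and folding partners had 6 of 9 lower and 2 higher, with a median of -0.40. The matrix protease LONP1 fell by 0.86 ± 0.08 and AFG3L2 of the inner membrane by 0.77 ± 0.06. HTRA2 was 0.33 ± 0.07 higher and HSCB 0.21 ± 0.07, and the HSCB call was lost with the ACTB covariate (0.06, limma adjusted p = 0.6225), after quantile normalization (0.14, 0.1489) and without DMSO day 6 replicate 1 (0.18) or EED226 day 6 replicate 3 (0.17). HTRA2 was 0.20 with the mean of its probe sets. Both calls were lost with only the 6 arrays of day 6.

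In 2 lists none passed at day 6 by limma: 0 of 9 small heat shock proteins and 0 of 4 heat shock factors and partners, with 1 in each at an unadjusted p under 0.05. HSPB1 (HSP27) differed by -0.01 ± 0.12 and HSF1 by -0.24 ± 0.13. Other settings called up to 2 genes in either list. The median of each was -0.10. The small heat shock proteins had low levels, with DMSO means from 2.93 to 4.69 at day 6. Of the 9, 5 lay below 4.06, the lowest array median, as did 1 of the 4 heat shock factors and partners. At such levels a lack of change cannot be told from a lack of signal.

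FKBP4 and FKBP5 belong to a family of prolyl isomerases. FKBP8 was counted with the HSP90 co-chaperones, and the list of this family held 11 other measured members. Of these, 6 were lower and 3 higher at day 6, with a median of -0.21. DMSO means at day 6 lay below 4.06, the lowest array median, for 2 of the 11. FKBP7 fell by 0.96 ± 0.13 and FKBP11 by 0.61 ± 0.10, while FKBP1B, which binds calcium release channels, rose by 2.27 ± 0.20 and FKBP14 by 1.08 ± 0.14. Their DMSO means at day 6 were 6.45 for FKBP7, 10.67 for FKBP11, 4.56 for FKBP1B and 6.48 for FKBP14. With the mean of its probe sets FKBP7 was -0.57.

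Of the glucocorticoid receptor and its known targets 6 of 11 were higher at day 6 and 1 lower, with a median of 0.46. DMSO means at day 6 lay below 4.06, the lowest array median, for 3 of the 11. NR3C1, the receptor, rose by 0.46 ± 0.06, TSC22D3 (GILZ) by 1.33 ± 0.18 and TXNIP by 1.76 ± 0.11. KLF9 differed by -0.36 ± 0.13 with overlapping arms (limma adjusted p = 0.02304), and that call was lost with the mean of its probe sets (-0.11, adjusted p = 0.1888), with only the 6 arrays of day 6 (0.1044) and without DMSO day 6 replicate 1 (-0.28) or 3 (-0.29) or EED226 day 6 replicate 3 (-0.27). TSC22D3 was 0.44 with the mean of its probe sets. FKBP5, a target of the same receptor, fell by 0.43 at day 6.

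**Figure D4:**
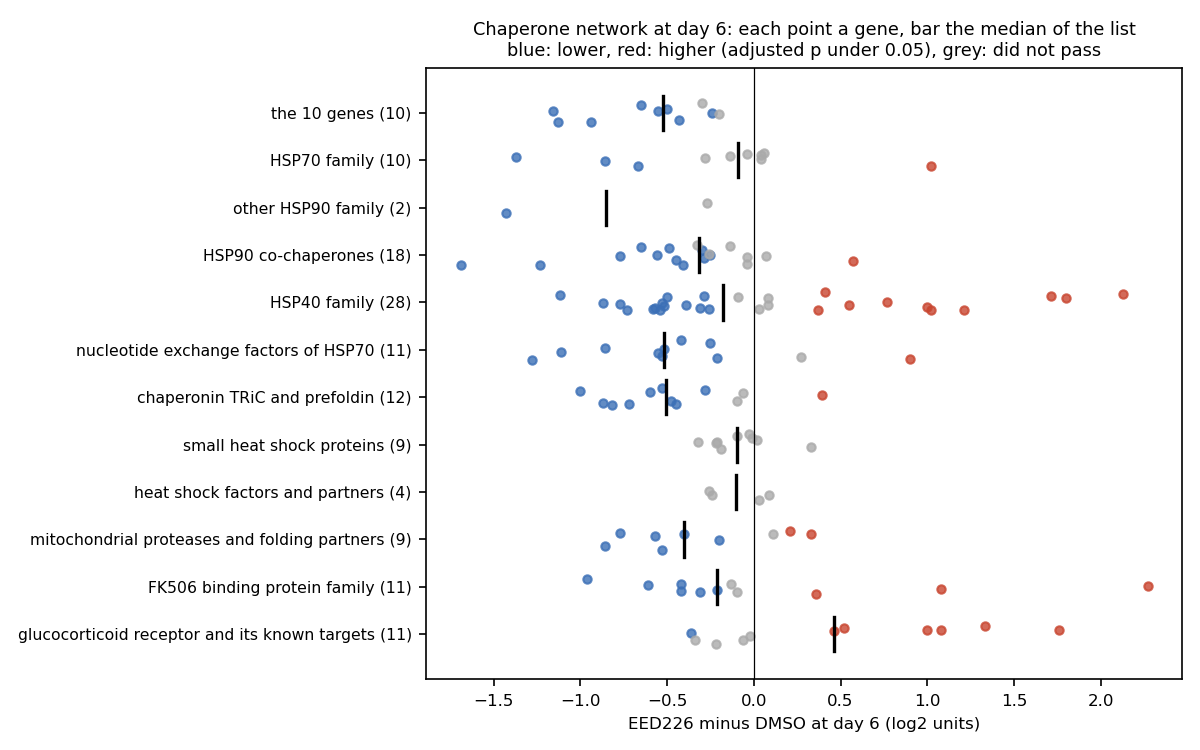
Log2 difference, EED226 minus DMSO at day 6 (horizontal axis), of the 10 genes and of each gene list, with the number of measured genes in brackets; each point is a gene, the vertical bar the median, and colours show genes lower (blue), higher (red) or not passing (grey). The exchange factors and TRiC with prefoldin have medians of -0.52 and -0.51, and the receptor list has one of 0.46.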

How the data were processed

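The authors deposited log2 expression values for each probe set and array. RMA, which corrects background, normalizes by quantiles and summarizes probes, made them, per the submitters' processing notes. No source used here gives its version or a genome build. Total RNA was labelled with a 3' kit, per the labels' protocols, so values depend on RNA integrity. For arrays, their number limits the precision.

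Of 54675 probe sets, 62 controls were left out and 54613 tested. Probe sets with 1 symbol numbered 41091, with several 1801 and with none 11721. Each of 19775 genes was read from its brightest probe set over all arrays; 10523 had more than 1. Genes with only shared sets were read from the fit over all probe sets. limma 3.58.1 in R 4.3.3 (lmFit, eBayes) fitted 11 group means over 33 arrays, 22 residual degrees of freedom, two-sided, Benjamini-Hochberg within a comparison. The SE is that of limma, and for pairs that of the difference of 2 means.

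The members and lists were chosen with earlier results of these data known. Named are all 10 members, the 2 largest rises and falls of each list among genes that passed at day 6, and the 3 genes most like FKBP4, FKBP5 and HSPA1A; PTGES3, CDC37, HSP90B1, HSPA4, CCT3, HSPB1, HSF1 and NR3C1 were named after their values were seen. Of 133 listed genes, 8 without a probe set of their own were not used.

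Same-numbered arrays of the 2 arms correlated in their deviations with r of 0.167 to 0.332 at 8 h, 0.175 to 0.373 at day 1 and 0.141 to 0.194 at day 2, which counts as paired, and 0.013 to 0.264 at day 3 and 0.068 to 0.165 at day 6, which does not. The numbers come from the titles.

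The fit was tested on simulated data modelled on day 6, with 200 of 19775 genes changed. It recovered 58.8% of log2 changes of 0.5, 97% of 1 and 100% of 2, and made 6 false calls. In the data far more genes were called at day 6, 27.3% lower and 23.7% higher. The adjusted threshold depends on that share, so these rates need not hold for the real comparison.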

Additional observations from a re-analysis of the deposited data

Results flagged for a closer look

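For 7 of the genes the EED226 effect differed between days 6 and 3 when the difference of the effects was tested with limma. The effect at day 6 minus that at day 3 was -0.72 for HSP90AB1, -0.45 for HSPD1, -0.82 for HSPE1, -0.64 for FKBP4, -0.44 for FKBP5, -0.38 for the shared HSPA8 signal and -0.39 for HSPH1. The HSPH1 value passed narrowly (adjusted p = 0.04029) and was lost in 7 of 13 alternatives, where it ran from -0.48 to -0.30 with adjusted p from 0.01088 to 0.1275. All 7 losses were fits without 1 array: DMSO day 3 replicate 1 (-0.38) or 3 (-0.33), DMSO day 6 replicate 3 (-0.30), EED226 day 3 replicate 1 (-0.36) or 2 (-0.40), and EED226 day 6 replicate 1 (-0.36) or 2 (-0.32). The other 6 kept their call in those alternatives. HSP90AA1, at -0.18, passed only without EED226 day 6 replicate 3 (-0.24, adjusted p = 0.01829, beside up to 0.2763).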

How the results depend on the processing

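Of 1650 member values recomputed under the alternatives, 1628 stayed on their side of the threshold, 10 gained a call and 12 lost one. The sign changed in 64 values, none of them called in either fit. Of 457 counts and pair values, 422 stayed within the bounds set and 35 moved; the cause was not tested. With trended and robust eBayes 2 genes and 2 probe sets were lower at day 2. With only the 6 arrays compared, 0 probe sets were lower at day 2, 2 genes at day 3, and 5 genes were called in each of the mitochondrial and FK506 binding protein lists at day 6. Lower probe sets at day 2 numbered 2 after quantile normalization, above the median level and with array weights, and 0 to 2 without 1 array; at day 3, 5 with the ACTB covariate and 4 to 11 without 1 array. At day 6 the other HSP90 list had 2 calls with the ACTB covariate, 1 lower (TRAP1) and 1 higher (HSP90B1, 0.67 in place of -0.27). Small heat shock proteins had 1 after median centring, quantile normalization or the ACTB covariate, 2 with the mean of probe sets or array weights (1 higher with the latter), and 0 to 2 without 1 array. Heat shock factors had 2 after quantile normalization, 1 with the mean of probe sets, above the median level, with array weights or the ACTB covariate, and 0 to 1 without 1 array. With the mean of probe sets, FKBP4 minus FKBP5 changed by -0.52, HSPD1 minus HSPE1 by 0.31, HSP90AA1 at day 6 was -0.44, and DNAJB1 at day 6 was called (-0.34). For the shared HSPA1A and HSPA8 sets, averaging was applied only to their pair (-0.34).

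With the replicate number as a block the count of genes called was the same at 8 h and days 1 and 2. At day 3 the block gave 5 genes and 14 probe sets, at day 6 8 genes and 30 probe sets, and 2 genes of the other HSP90 list, both lower. DNAJB1 was called with it at day 3 (adjusted p = 0.01793) and day 6 (0.03082), and the shared HSPA1A signal at day 6 (0.03633), at unchanged differences of -0.25, -0.20 and -0.30. At these times same-numbered arrays correlated positively in their deviations, but as low as 0.013 at day 3 and 0.068 at day 6. The numbers therefore did not count as pairing, which does not show that pairing was absent.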
